A study of Mus musculus with 18 samples.

Results

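The nuclear genes for the subunits of the oxidative phosphorylation complexes were followed through 18 mouse RNA-seq libraries. Members were taken by name: every row whose symbol begins with Nduf followed by a, b, c, s or v and a digit, with Cox4 to Cox8, with Atp5 or with Uqcr, plus Sdha, Sdhb, Sdhc and Sdhd, while 8 names holding a pseudogene suffix were left out. This took 89 of 55450 rows, of 88 symbols, since Atp5o has a pair of gene models. By complex, 38 belonged to complex I, 4 to complex II, 8 to complex III, 21 to complex IV (Ndufa4 and Ndufa4l2, named for complex I but now placed with cytochrome c oxidase, included) and 18 to complex V. A filter on low counts passed 83 members. The other 6 were Cox8c, listed at 0 throughout, Cox7b2, with at most 3 counts in a library, the processed pseudogenes Cox6c2, Ndufa11b and Ndufs6b, and the second Atp5o model, with at most 2 counts in a library each.

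Complexes I to IV of the mitochondrial inner membrane pass electrons from NADH and succinate to oxygen and pump protons, except for complex II, which pumps none. Complex V, the ATP synthase, uses the proton gradient to make ATP. Most of their subunits are encoded in the nucleus and a few in mitochondrial DNA. Complex IV, cytochrome c oxidase, has several nuclear subunits in tissue-specific versions: Cox6a2, Cox7a1 and Cox8b replace Cox6a1, Cox7a2 and Cox8a in heart and skeletal muscle, and Cox7a1 and Cox8b are also marks of brown fat. Cox4i2 and Ndufa4l2 are alternative forms of Cox4i1 and Ndufa4 that are known for low oxygen and for perivascular cells.

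All mice were C57Bl/6 females (C57Bl/6 J in the study's methods). The B1/P/Rbf tumors (n = 5) carried Brca1 fl/fl, Trp53 fl/fl and the TgK18GT121 Tg/+ transgene, the B1/P tumors (n = 5) Brca1 fl/fl and Trp53 fl/fl alone, and the P/Rbf tumors (n = 5) Trp53 fl/fl and the TgK18GT121 Tg/+ transgene. Thus all 3 tumor groups carried the Trp53 fl/fl allele. The transgene drives T121, a fragment of the SV40 large T antigen that inhibits pRb, p107 and p130, from the keratin 18 promoter once Cre has acted. Cre came from an adenovirus with a CMV promoter injected through the nipple into the ducts of 1 gland in adult mice, so that recombination is limited to the cells that the virus reached. Normal glands (n = 3) were from wild type mice, whose age is not given in the sources used here. Each library was 1 mouse, identified by its number.

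Total counts per library ranged from 27661173 to 37794889. Trp53 lay at 6.75 to 24.3 CPM (counts scaled to the library's total, with TMM factors) in the 15 tumors and at 54.4 to 71.8 CPM in the glands. Brca1 lay at 8.13 to 45.0 CPM in the 10 tumors with Brca1 fl/fl, at 44.9 to 116 CPM in P/Rbf tumors and at 4.61 to 5.99 CPM in the glands, and a count over a whole gene does not isolate the deleted exons. In B1/P/Rbf tumor 208863 the loss of Brca1 was only partial by RT-qPCR in the study's own check, and Brca1 was highest there among the 10, at 45.0 CPM. The 10 epithelial markers summed to 3507 to 7384 CPM in the B1/P/Rbf group, 1895 to 4889 CPM in B1/P tumors, 7853 to 12973 CPM in the P/Rbf group and 2294 to 2737 CPM in glands. The 18 skeletal muscle markers, by contrast, summed to 40704 to 82876 CPM in the 3 glands and 6.63 to 35.8 CPM in 14 tumors, with 985 CPM in B1/P tumor 248662. Acta1, the actin of skeletal muscle, reached 6269.9, 10804 and 12952 CPM in the glands. The 12 white adipocyte markers summed to 27712 to 34395 CPM in glands and 23.7 to 329 CPM in tumors. Ucp1, which defines brown fat, lay at 11.1, 160.2 and 163 CPM in glands 330154, 330156 and 330155 and at 0.5 CPM or less in tumors. All 8 brown fat markers summed to 229 to 498 CPM in glands and 5.00 to 195 CPM in tumors, and of the 7 tested 5 were lower in each tumor group than in glands and 0 higher. Dio2, the thyroid hormone deiodinase of that list, had positive log2 fold changes (2.64, 3.42 and 2.25 in tumors of the B1/P/Rbf, the B1/P and the P/Rbf group) that did not pass (adjusted p = 0.260, 0.167 and 0.326). The 8 lymphocyte markers summed to 383 to 532 CPM in glands and 2.43 to 36.5 CPM in tumors. The gland libraries therefore held muscle and fat transcripts in amounts that the tumors did not, and fewer cells of a type cannot be told apart from less RNA per cell in such bulk samples.

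Start sites of isoform partners are shown because the partners behaved so differently across these samples. RefSeq windows on GRCm38.p6 were matched for 68 of the 88 symbols, 1 window each, and the 250 bases before the RefSeq start are printed for both members of the Cox7a and Cox8 pairs and for Cox6a1, with Cox6a2 named only. Capitals mark matches on either strand to GCATGCGC (one arm of the NRF1 site), CCGGAAG (the ETS core), AAGGTCA (the ERR half-site) and CANNTG (the E-box), which may overlap. The windows lie at chr7:30183921-30184170 (plus strand), chr9:79759854-79760103 (minus), chr7:140900447-140900696 (minus), chr19:7217617-7217866 (minus) and chr5:115348959-115349208 (minus), in that order. RefSeq starts need not be those of the GENCODE coordinates given for the genes: the windows of Cox7a1, Cox7a2 and Cox6a1 reach 27, 25 and 23 bases into the GENCODE gene.
Cox7a1, muscle isoform: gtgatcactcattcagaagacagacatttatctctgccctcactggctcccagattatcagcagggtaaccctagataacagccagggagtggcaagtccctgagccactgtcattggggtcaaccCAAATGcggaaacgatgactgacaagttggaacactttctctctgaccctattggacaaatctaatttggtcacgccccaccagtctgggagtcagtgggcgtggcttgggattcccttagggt
Cox7a2, ubiquitous partner: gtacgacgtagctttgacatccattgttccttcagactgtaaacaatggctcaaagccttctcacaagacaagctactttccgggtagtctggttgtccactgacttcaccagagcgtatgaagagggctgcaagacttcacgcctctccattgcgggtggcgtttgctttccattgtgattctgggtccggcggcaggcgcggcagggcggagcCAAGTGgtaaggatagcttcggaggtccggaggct
Cox8b, muscle isoform: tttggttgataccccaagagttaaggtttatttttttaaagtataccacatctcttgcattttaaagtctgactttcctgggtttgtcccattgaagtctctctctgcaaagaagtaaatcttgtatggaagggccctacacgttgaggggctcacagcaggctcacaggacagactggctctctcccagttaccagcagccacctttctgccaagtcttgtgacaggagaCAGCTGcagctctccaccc
Cox8a, ubiquitous partner: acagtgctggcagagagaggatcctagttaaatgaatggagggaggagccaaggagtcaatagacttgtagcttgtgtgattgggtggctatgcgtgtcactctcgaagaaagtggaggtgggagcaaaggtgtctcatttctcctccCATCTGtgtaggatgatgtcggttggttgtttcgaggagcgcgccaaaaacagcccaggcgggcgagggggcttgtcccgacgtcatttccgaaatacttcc
Cox6a1, ubiquitous partner: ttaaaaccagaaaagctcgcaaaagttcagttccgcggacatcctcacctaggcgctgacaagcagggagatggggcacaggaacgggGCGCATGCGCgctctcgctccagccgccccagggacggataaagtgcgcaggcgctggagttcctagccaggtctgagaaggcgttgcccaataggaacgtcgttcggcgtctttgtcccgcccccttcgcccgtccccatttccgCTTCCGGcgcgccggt

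Each of the Cox7a and Cox8 windows held 1 E-box and none of the other 3 motifs, whether muscle or ubiquitous. Cox6a1 held 2 overlapping matches to the NRF1 letters and 1 to the ETS core. Over the 68 member windows, the NRF1 letters stood in 8 (11.8%), against 2.32% of 27025 windows of all genes. The ETS core stood in 11 (16.2%), against 7.05% of all windows, and the ERR half-site in 5 (7.35%), against 4.05%. E-boxes stood in 43 (63.2%), against 66.0%. Member windows had a median of 56.2% G and C, against 52% in all windows, and the shares were not adjusted for this. A match is a description of letters in these windows only.

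Normal glands had far higher levels of these genes than tumors had. The members together took 1.66% to 1.91% of all counts in glands and 0.56% to 1.01% in tumors. The mean of log2 CPM over 77 tested members (the 6 tissue-restricted isoforms Cox4i2, Cox6a2, Cox6b2, Cox7a1, Cox8b and Ndufa4l2 left out) was 7.67 ± 0.17 (SD, n = 3) in glands. It was 6.29 ± 0.15 (n = 5) in P/Rbf, 5.98 ± 0.16 (n = 5) in B1/P and 5.80 ± 0.26 (n = 5) in B1/P/Rbf tumors. The heat map of members by sample shows the 3 glands apart from the 15 tumors in nearly every row.

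**Figure D1:**
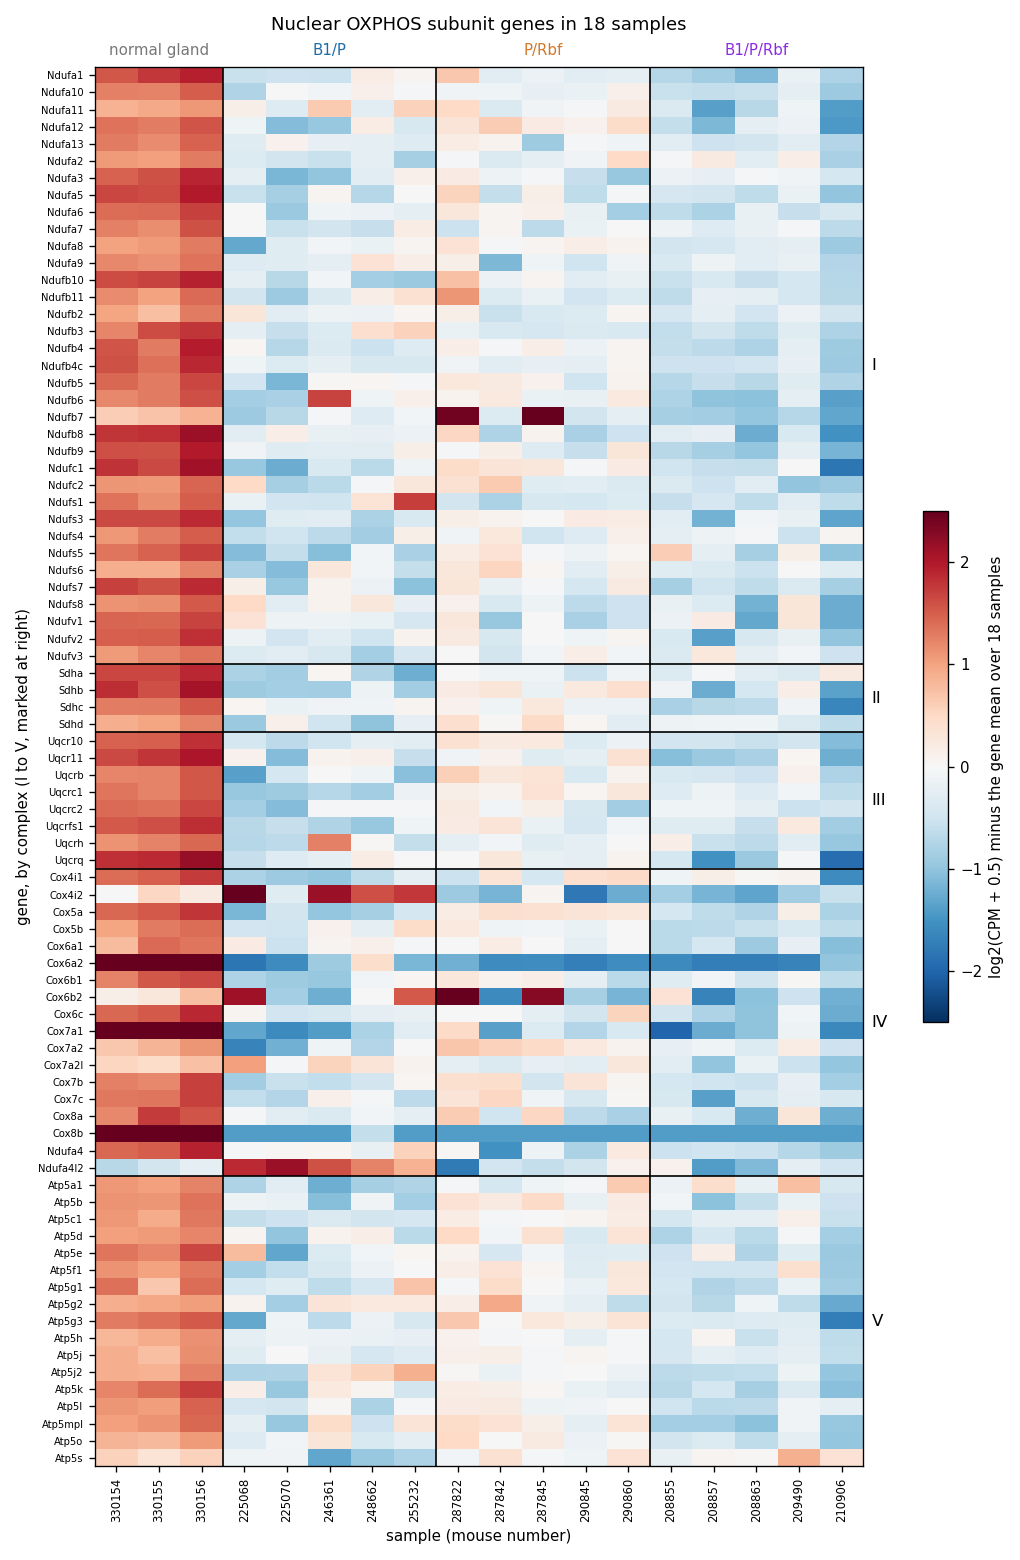
Levels of 82 of the 83 tested subunit genes (rows, grouped by complex I to V) in 18 samples (columns, by mouse number), as log2(CPM + 0.5) minus the gene's mean over all samples, with colors clipped at 2.5 either way. The 3 normal glands are above the gene mean in nearly all rows, Cox4i2 and Ndufa4l2 stand out in B1/P tumors, and Ndufb7 stands out in P/Rbf tumors 287845 and 287822.

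Against normal gland, 79 of the 83 tested members were lower in B1/P/Rbf tumors and 0 higher, at an adjusted p of 0.05 or less from edgeR's quasi-likelihood test. That is 95.2% of members, where 20.0% of the 19186 genes tested were lower and 17.0% higher. In B1/P tumors 75 members were lower and 2 higher (all genes: 16.9% lower and 16.8% higher). In P/Rbf tumors 77 were lower and 0 higher (all genes: 20.3% lower and 17.4% higher). The median log2 fold change of the members was -1.82 in B1/P/Rbf, -1.61 in B1/P and -1.42 in P/Rbf tumors, and that of all genes was 0.05, 0.12 and 0.05. Without TMM factors the medians of all genes rose to 0.42, 0.47 and 0.33, and those of the members were -1.45, -1.25 and -1.14. With a term in the fit for 2 sets of mouse numbers (the 8 lowest numbers and the other 10), 62 of the 79 calls in B1/P/Rbf, and 72 of the 77 in B1/P tumors were kept. The P/Rbf tumors and the glands all lie in the set of 10, so that the term left their fold changes almost as they were. It did move adjusted p-values, and the 77 calls in P/Rbf tumors were all kept. The 3 comparisons share the same 3 glands. The muscle and fat markers given above were higher in glands along with the members, and their part in these differences was not tested.

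All 5 complexes were lower in each tumor group, with complex V the nearest to the glands. In B1/P/Rbf tumors the median log2 fold change was -1.89 for complex I (36 of 36 tested members called), -1.99 for complex II (4 of 4), -1.89 for complex III (8 of 8), -1.88 for complex IV (15 of 18) and -1.61 for complex V (16 of 17). With the term for mouse numbers 28 of these 36, 4 of 4, 8 of 8, 11 of 15 and 11 of 16 calls were kept, and that of Ndufb7 was also lost without any 1 of the 8 samples compared. The B1/P medians were -1.71, -1.95, -2.03, -1.77 and -1.32 for complexes I to V, with 32, 4, 8, 14 and 17 members lower. Those of P/Rbf tumors were -1.58, -1.51, -1.58, -1.40 and -1.03, with 35, 4, 8, 14 and 16 lower. The order of the complexes is a description, and no test was made between them.

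**Figure D2:**
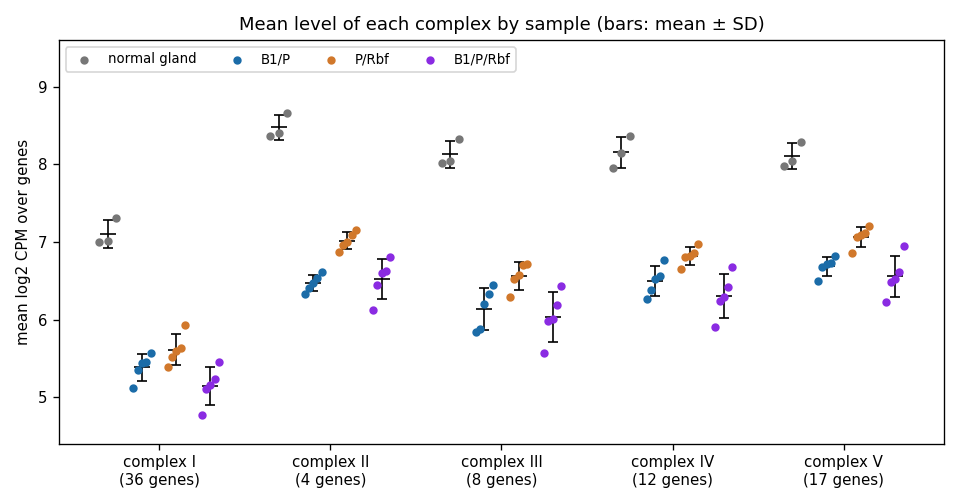
Mean log2 CPM over the genes of each complex (y axis) in each sample (points), by complex and group, with group mean and SD as bars and the tissue-restricted isoforms left out. Every gland lies above every tumor in all 5 complexes, and the P/Rbf tumors have the highest group mean of the 3 tumor groups in each.

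Catalytic subunits followed the same course. Ndufs1, which holds iron-sulfur clusters of complex I, lay at 254, 289.7 and 321 CPM in glands and 72.1 to 92.9 CPM in B1/P/Rbf tumors, with no overlap and a log2 fold change of -1.86 ± 0.38 (SE, adjusted p = 0.00107). With the term for mouse numbers it was -0.27 (adjusted p = 0.654) and no longer called. In B1/P tumors Ndufs1 lay at 79.1, 80.9, 99.7, 144 and 376 CPM, so that tumor 255232 exceeded the glands and the difference did not pass (adjusted p = 0.0808). Ndufv1, which binds NADH and FMN, lay at 285, 288 and 339 CPM in glands and 42.6 to 129, 78.4 to 134 and 54.0 to 128 CPM in tumors of the B1/P/Rbf, the B1/P and the P/Rbf group. All 15 tumors were below all 3 glands for Ndufv1, and the log2 fold changes were -1.81, -1.61 and -1.86 (adjusted p = 0.000780, 0.00228 and 0.000614). The complex I core genes Ndufs3, Ndufs7, Ndufs8 and Ndufv2 were each called lower in the 3 groups of tumors, by log2 fold changes from -2.37 to -1.19.

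Sdha, the flavoprotein of complex II and an enzyme of the citric acid cycle, lay at 821, 824 and 957 CPM in glands and 109.5 to 265 CPM in B1/P tumors (log2 fold change -2.41 ± 0.24 SE, adjusted p = 2.06e-06). B1/P/Rbf tumors held 200.5 to 303 CPM and P/Rbf tumors 178 to 258 CPM of Sdha, all below the glands. Sdhb, its iron-sulfur partner, lay at 242, 283 and 335 CPM in glands and 42.2 to 72.3 CPM in B1/P tumors, a log2 fold change of -2.56 ± 0.30 (SE, adjusted p = 9.65e-06). The Rieske protein gene Uqcrfs1 of complex III was lower, with log2 fold changes of -2.27 for B1/P, -1.99 in B1/P/Rbf and -1.67 in P/Rbf tumors (adjusted p at most 5.19e-05). Atp5a1 and Atp5b encode the catalytic head of the ATP synthase. Atp5b lay at 1918, 1959.9 and 2309 CPM in glands and 440.5 to 851, 430.4 to 842 and 784 to 1253 CPM in tumors of the B1/P/Rbf, the B1/P and the P/Rbf group, with log2 fold changes of -1.64, -1.61 and -0.97 (adjusted p at most 0.00781).

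The c-ring of the ATP synthase is made of 1 protein encoded by 3 genes, Atp5g1, Atp5g2 and Atp5g3. Atp5g3 was the most lowered of them against glands, with log2 fold changes of -1.93, -1.87 and -1.10 in tumors of the B1/P/Rbf, the B1/P and the P/Rbf group. Atp5g1 had -1.76, -1.32 and -1.07. Atp5g2 had -1.57, -0.92 and -0.85, of which those in B1/P (adjusted p = 0.0360) and P/Rbf tumors (adjusted p = 0.0460) were lost without TMM factors and without any of the 3 glands in turn. With the term for mouse numbers the calls of Atp5g1 in B1/P/Rbf tumors, -1.05 (adjusted p = 0.0856), and of Atp5g2 in B1/P/Rbf, -1.26 (adjusted p = 0.108), and B1/P tumors, -0.74 (adjusted p = 0.208), were lost. Counts of Atp5g1 and Atp5g2 were not whole in 16 and 18 libraries, which is how RSEM gives genes that share reads with others.

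The muscle isoforms of complex IV were nearly confined to the glands. Cox8b (ENSMUSG00000025488.9, GRCm38 chr7:140898945-140900446) lay at 119.7, 123 and 190.1 CPM in glands. It had 0 counts in 14 tumors and 12 counts, 0.378 CPM, in B1/P tumor 248662, the tumor that also held muscle markers. Set against a floor of 3 counts per library, Cox8b was at least 1708-fold higher in glands than in B1/P/Rbf tumors and at least 1647-fold higher than in P/Rbf tumors. Cox6a2 (ENSMUSG00000030785.8, chr7:128205435-128206387) lay at 119.7, 228 and 249.7 CPM in glands. Tumors held 0.0270 to 0.389 CPM in B1/P/Rbf, 0 to 1.89 CPM in B1/P and 0.0340 to 0.263 CPM in P/Rbf, with the top value again in tumor 248662. These values rest on few counts: 19, 91 and 21 summed over the 5 tumors of each group, of which 12, 60 and 10 came from its highest tumor (210906, 248662 and 287822), beside 3659 to 6735 counts in each gland. Cox7a1 (ENSMUSG00000074218.3, chr7:30184144-30186078) lay at 53.9, 70.9 and 94.9 CPM in glands and at 0.284 to 2.36, 0.533 to 2.10 and 0.719 to 3.84 CPM in the same order of tumor groups. Its log2 fold changes were -6.18 ± 0.67 (SE, adjusted p = 2.62e-06), -6.09 ± 0.67 (SE, adjusted p = 4.39e-06) and -5.22 ± 0.64 (SE, adjusted p = 9.50e-06). These 3 genes were the most lowered members with groups apart in every comparison with glands. The call of Cox8b in the B1/P/Rbf group, where all 5 tumors had 0 counts, was lost with the term for mouse numbers (fitted log2 fold change -9.57, adjusted p = 1.000), where a fitted value against a group at 0 is no bound.

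Gland by gland the muscle isoforms did not move alike. Cox6a2 was lowest in gland 330155 (119.7 CPM), which also had the lowest sum of muscle markers (40704 CPM) and 163 CPM of Ucp1. Cox8b was 119.7 CPM in gland 330154, which had the highest muscle sum (82876 CPM) and 11.1 CPM of Ucp1, and 123 CPM in gland 330155. Cox7a1, like Cox6a2, was lowest in gland 330155, at 53.9 CPM. Cox7a1 and Cox8b were both highest in gland 330156, at 94.9 and 190.1 CPM.

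**Figure D3:**
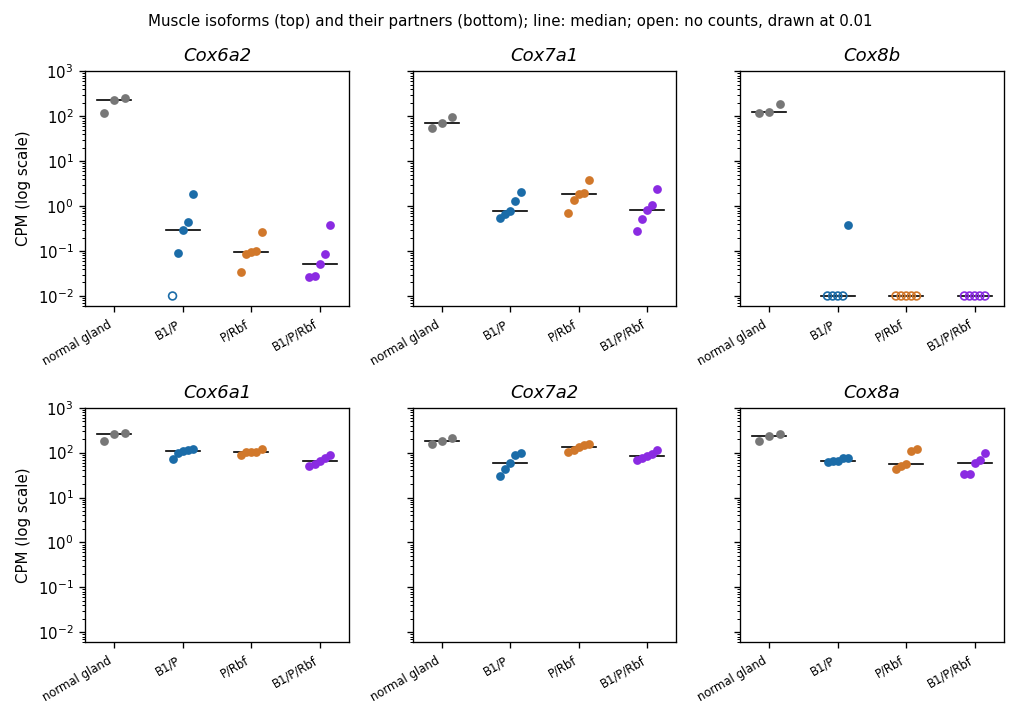
CPM on a log scale (y axis) of the 3 muscle isoforms of complex IV (top) and their ubiquitous partners (bottom) in each sample (points) by group, with medians as lines and open points at 0.01 for samples with no counts. The muscle isoforms sit between 53.9 and 249.7 CPM in glands and at or below 3.84 CPM in all tumors, while the partners stay between 30.2 and 158 CPM in tumors.

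The ubiquitous partners remained well expressed in tumors. Cox6a1 lay at 179, 262 and 279 CPM in glands and 49.5 to 89.7, 71.4 to 119 and 87.5 to 118 CPM in tumors of the B1/P/Rbf, the B1/P and the P/Rbf group, all below the glands (log2 fold changes -1.84, -1.23 and -1.22, adjusted p at most 0.000369). Cox8a had -1.95, -1.73 and -1.56 (adjusted p at most 0.00265). Cox7a2 was called lower in B1/P/Rbf (-1.07, adjusted p = 0.0102, lost without gland 330156) and B1/P tumors (-1.51, adjusted p = 0.00103). The first was -0.55 (adjusted p = 0.445) with the term for mouse numbers. In P/Rbf tumors Cox7a2 lay at 104, 116, 136, 145 and 158 CPM beside 156, 177 and 212 CPM in glands, groups that overlapped (adjusted p = 0.242).

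Per kilobase of exon, where genes can be set side by side, glands held the muscle and the ubiquitous forms at like levels. The level of Cox8b was 401 ± 110.4 CPM per kb (SD, n = 3) and that of Cox8a 363 ± 67.1. Cox6a2 had 293 ± 102 and Cox6a1 342 ± 75.6 CPM per kb, and Cox7a1 had 137 ± 38.5 and Cox7a2 193 ± 29.5. In B1/P tumors the levels were 0.803 ± 1.14 for Cox6a2 against 146 ± 26.4 CPM per kb for Cox6a1 (SD, n = 5). That Cox6a2 mean rests largely on tumor 248662, at 1.89 CPM beside 0 to 0.452 CPM in the others. As a log2 ratio within each sample, Cox6a2 over Cox6a1 was -0.31 ± 0.85 (SD, n = 3) in glands and -8.87 ± 1.23, -8.32 ± 1.86 and -9.32 ± 0.60 (n = 5 each) in tumors of the B1/P/Rbf, the B1/P and the P/Rbf group. The ratio of Cox7a1 to Cox7a2 was -1.34 ± 0.33 in glands and -6.64 ± 0.91, -5.85 ± 0.71 and -6.21 ± 0.84 in the tumor groups. That of Cox8b to Cox8a, which in tumors rests on the prior count, was -0.66 ± 0.40 in glands. In an exact two-sided permutation test each of these 9 gland comparisons reached p = 0.0357, the smallest that 3 against 5 samples allow, which was 0.101 after adjustment over the 48 ratios tested (8 pairs in 6 comparisons). No ratio passed an adjusted p of 0.05 by that test, and 17 of the 48 had an unadjusted p under 0.05.

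Few members escaped the difference from glands. Cox6b2, a testis form of Cox6b1, lay at 1.76, 1.96 and 2.91 CPM in glands, and none of its differences from them passed (adjusted p = 0.360, 0.761 and 0.540 in tumors of the B1/P/Rbf, the B1/P and the P/Rbf group). Cox7a2l, which encodes a Cox7a-related protein, lay at 151, 165, 195, 229.6 and 318 CPM in B1/P tumors and 214, 227 and 258 CPM in glands, a log2 fold change of -0.14 ± 0.26 (SE, adjusted p = 0.710) that was 0.22 without TMM factors. The other members that did not pass were Cox4i2, Ndufa4l2 and Atp5s in B1/P/Rbf tumors, Ndufa11, Ndufb6, Ndufb7 and Ndufs1 in B1/P tumors, and Ndufb7, Cox4i2, Cox7a2, Ndufa4l2 and Atp5s in P/Rbf tumors.

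Cox4i2 and Ndufa4l2 were the 2 members above the glands in B1/P tumors. Ndufa4l2 (ENSMUSG00000040280.10, chr10:127514967-127517154) lay at 11.8, 15.4, 19.9, 24.2 and 29.5 CPM in B1/P tumors and 3.67, 4.39 and 5.25 CPM in glands, with no overlap and a log2 fold change of 2.18 ± 0.50 (SE, adjusted p = 0.00302). Cox4i2 (ENSMUSG00000009876.13, chr2:152754173-152765037) lay at 1.18, 5.83, 6.56, 8.80 and 27.9 CPM in B1/P tumors and 1.60, 1.93 and 2.49 CPM in glands. Tumor 225070 fell below the glands for Cox4i2, and the log2 fold change of 2.32 ± 0.87 (SE, adjusted p = 0.0470) lost its call without B1/P tumor 225068 or 246361, or without any 1 gland, and was 1.62 (adjusted p = 0.225) with the term for mouse numbers.

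The same genes set B1/P tumors apart from both other models. Cox4i2 lay at 0.331, 0.432, 0.634, 0.652 and 0.909 CPM in the B1/P/Rbf group and 0.102, 0.380, 0.431, 0.605 and 1.67 CPM in P/Rbf tumors. Every B1/P/Rbf tumor was below every B1/P tumor, and 4 of 5 P/Rbf tumors were, with 287845 above B1/P tumor 225070. The log2 fold change was -4.08 ± 0.77 (SE, adjusted p = 0.00238) for B1/P/Rbf and -3.97 ± 0.77 (SE, adjusted p = 0.00270) for P/Rbf against B1/P. Ndufa4l2 lay at 2.08, 2.62, 4.35, 5.22 and 6.72 CPM in the B1/P/Rbf group and 1.47, 3.94, 4.31, 4.43 and 6.76 CPM in P/Rbf tumors. All 10 were below all 5 B1/P tumors, with log2 fold changes of -2.26 ± 0.41 (SE, adjusted p = 0.00193) and -2.27 ± 0.41 (SE, adjusted p = 0.00200). These 4 calls held whichever sample was left out.

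Markers of pericytes, in which both genes are known to be expressed, also differed between these groups of tumors. Of 8 such markers 4 were lower in B1/P/Rbf (all genes 9.29%) and 7 in P/Rbf (all genes 10.8%) than in B1/P tumors, and 0 higher, with Kcnj8 and Higd1b the most lowered in both. Their sum was 588 to 1019 CPM in B1/P, 266 to 701 CPM in the B1/P/Rbf group and 252 to 463 CPM in P/Rbf tumors, and 619 to 802 CPM in glands, with none of the 8 at 0 in any group. B1/P tumor 225070 had the lowest sum of its group (588 CPM), with its highest Ndufa4l2 (29.5 CPM) and its lowest Cox4i2 (1.18 CPM). Kcnj8 lay at 12.5, 15.7, 17.7, 21.1 and 35.3 CPM in B1/P tumors and 3.75 to 8.63 and 2.83 to 6.84 CPM in B1/P/Rbf and P/Rbf tumors. Car9 was the 1 of 10 hypoxia genes that was called against B1/P tumors, higher in P/Rbf. Against glands, the pericyte markers Pdgfrb and Notch3 were called higher in B1/P tumors and Abcc9 lower. Of the hypoxia genes, Ndrg1, Slc2a1 and Ankrd37 were higher in B1/P tumors than in glands, and Ldha and Bnip3 lower. Of all genes 16.8% were higher and 16.9% lower in that comparison. The part of pericytes in the difference was not tested. The usual partners were not called. Cox4i1 lay at 132, 137, 148, 165 and 219.8 CPM in B1/P, 85.7, 239, 263, 274 and 286 CPM in the B1/P/Rbf group and 177, 189, 327, 345 and 361 CPM in P/Rbf tumors (adjusted p = 0.240 and 0.0628). Ndufa4 had a log2 fold change of -0.74 ± 0.26 (SE, adjusted p = 0.0603) and -0.41 ± 0.26 (SE, adjusted p = 0.269).

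**Figure D4:**
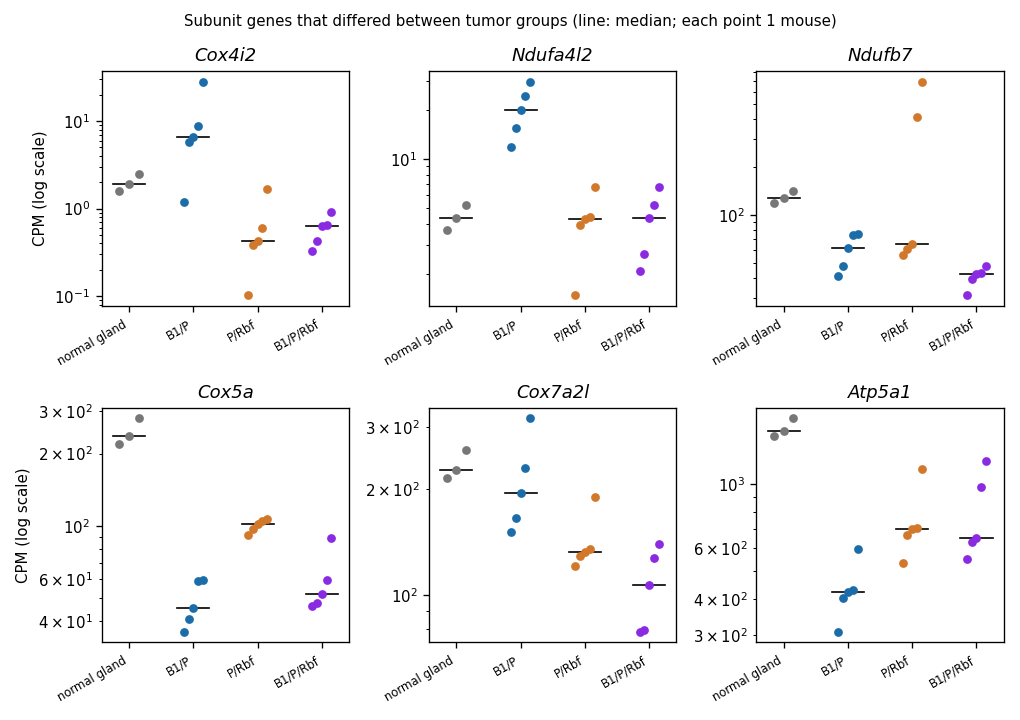
CPM on a log scale (y axis, its range set per gene) of 6 subunit genes in each sample (points) by group, with medians as lines. Cox4i2 and Ndufa4l2 have their highest medians in B1/P tumors, Ndufb7 has 2 P/Rbf tumors at 416 and 689 CPM, and the P/Rbf tumors lie above all B1/P tumors for Cox5a.

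Between tumor models few members were called. In B1/P/Rbf against B1/P tumors, 2 of 83 were higher (2.41%, all genes 7.36%) and 8 lower (9.64%, all genes 9.29%), shares close to or under those of all genes. The median log2 fold change was -0.26, beside -0.06 for all genes. It was -0.27 for complex I, 0.20 for complex II, -0.06 for complex III, -0.46 for complex IV and -0.17 for complex V. In P/Rbf against B1/P tumors, 9 were higher (10.8%, all genes 8.43%) and 2 lower (2.41%, all genes 10.8%), the first share again close to that of all genes, with a median of 0.26 beside -0.05. The medians were 0.20, 0.55, 0.35, 0.21 and 0.33 for complexes I to V, and 0.25 for complex IV with Cox8b left out. Both comparisons share the B1/P tumors. Without B1/P/Rbf tumor 208863, in which loss of Brca1 was partial, the first gave 1 higher and 3 lower (all genes 1137 and 1356 of 19186). Without TMM factors the second split was 6 higher and 4 lower (all genes 6.99% and 11.8%), and with the term for mouse numbers 2 higher and 5 lower (all genes 3.23% and 7.24%).

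**Figure D5:**
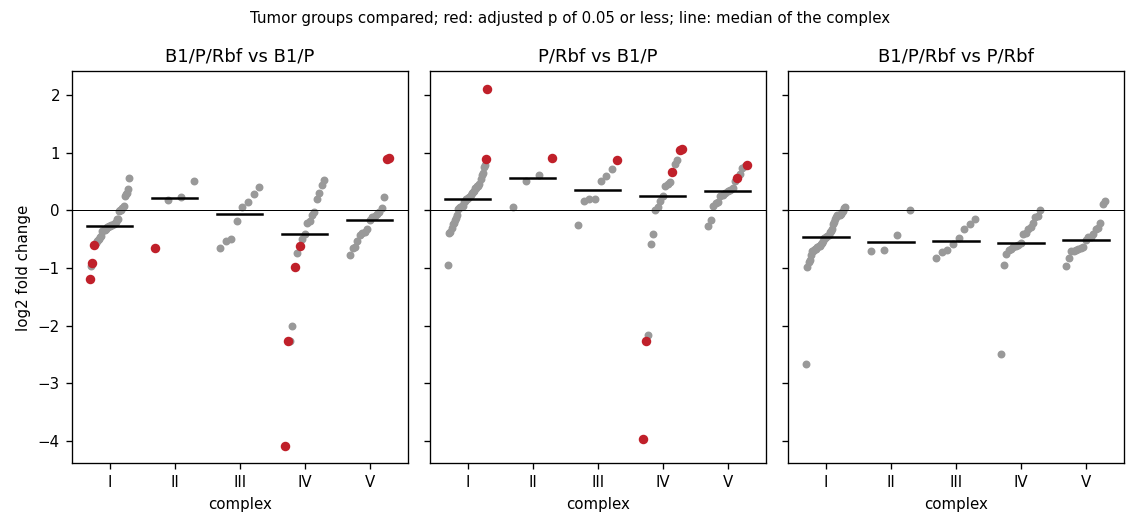
Log2 fold changes (y axis) of the tested members (points) by complex in the 3 comparisons of tumor groups, with called members in red, medians as lines and Cox8b left out. Most points are below 0 for B1/P/Rbf against P/Rbf without a call, and the lowest called points are Cox4i2 and Ndufa4l2 of complex IV.

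Besides Cox4i2 and Ndufa4l2, Cox7a2l was lower in the B1/P/Rbf group than among B1/P tumors with no overlap. Its values were 78.8, 79.6, 107, 127 and 139 CPM in the B1/P/Rbf group and 151, 165, 195, 229.6 and 318 CPM in B1/P tumors, a log2 fold change of -0.99 ± 0.22 (SE, adjusted p = 0.00688) that held whichever sample was left out. In P/Rbf tumors Cox7a2l lay at 121, 129, 133, 135 and 190.1 CPM (log2 fold change -0.58 ± 0.22 SE, adjusted p = 0.0755 against B1/P). Counts of Cox7a2l were not whole in 17 libraries, which is how RSEM gives genes that share reads with others. Sdhc, a membrane anchor of complex II, lay at 28.5, 50.6, 55.3, 56.8 and 83.9 CPM in the B1/P/Rbf group and 80.2, 83.8, 83.8, 93.0 and 94.0 CPM in B1/P tumors, with tumor 209490 inside the B1/P range (log2 fold change -0.66 ± 0.21 SE, adjusted p = 0.0388). Cox6a1 was lower in the same comparison (log2 fold change -0.61 ± 0.19 SE, adjusted p = 0.0372), as were the complex I accessory genes Ndufb6 (log2 fold change -1.20 ± 0.40 SE, adjusted p = 0.0481), Ndufa11 (log2 fold change -0.92 ± 0.28 SE, adjusted p = 0.0307) and Ndufb9 (log2 fold change -0.60 ± 0.20 SE, adjusted p = 0.0463). Each of these 5 calls was lost without at least 5 of the 10 tumors, taken 1 at a time. Ndufb6 reached 120.0 CPM in B1/P tumor 246361 and 14.0 to 31.4 CPM in B1/P/Rbf tumors, and its log2 fold change shrank to -0.49 without that tumor.

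On the other side were Atp5a1 and Atp5s. Atp5a1 lay at 549, 631, 653, 982 and 1208 CPM in the B1/P/Rbf group, 532, 667, 697, 706 and 1127 CPM in P/Rbf and 308, 404, 424, 430.0 and 598 CPM in B1/P tumors. Against B1/P its log2 fold change was 0.89 ± 0.25 (SE, adjusted p = 0.0236) in B1/P/Rbf and 0.79 ± 0.25 (SE, adjusted p = 0.0393) in P/Rbf tumors, with 4 of 5 tumors of either group above all B1/P tumors. The first was lost without B1/P/Rbf tumor 208857 or 209490 or B1/P tumor 246361, and the second without any of 7 tumors. Atp5s, which encodes factor B rather than a part of the synthase core, lay at 7.83, 9.24, 9.44, 11.8 and 17.2 CPM in the B1/P/Rbf group and 3.37, 4.48, 5.12, 8.30 and 8.47 CPM in B1/P tumors (log2 fold change 0.90 ± 0.30 SE, adjusted p = 0.0463), and its call was lost without any of 7 tumors. With the term for mouse numbers, of the 10 calls against B1/P tumors those of Cox4i2, Ndufa4l2 and Cox7a2l were kept and the other 7 lost, at adjusted p between 0.0513 and 0.169.

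Few members were called higher in P/Rbf than in B1/P tumors, a share close to that of all genes as given above. Of the 83 tested, 65 had a log2 fold change above 0. At an unadjusted p under 0.05 from edgeR, 27 members were higher and 5 lower (all genes 3003 and 3624 of 19186). The members called higher came from complexes I to V, with 1 each in complexes II and III. Epithelial markers also differed: 5 of the 10 were higher (all genes 8.43%) and 0 lower, and their sums, given above, did not overlap between these groups. In B1/P/Rbf tumors the median epithelial sum (6371 CPM) was also above that of B1/P tumors (2509 CPM). The members' median log2 fold change in that comparison was -0.26. Glands, where the members were highest, had a median epithelial sum of 2445 CPM. The 8 fibroblast markers summed to 1212 to 3945 CPM in P/Rbf and 2459 to 12826 CPM in B1/P tumors, with 4 lower (all genes 10.8%) and 0 higher. The part of either cell type in the difference was not tested. Cox5a (ENSMUSG00000000088.7, chr9:57521274-57532426), a structural subunit of complex IV, lay at 91.5, 97.0, 101, 105 and 107 CPM in P/Rbf and 36.3, 40.9, 45.3, 58.7 and 59.5 CPM in B1/P tumors. The groups did not overlap, and the log2 fold change was 1.06 ± 0.19 (SE, adjusted p = 0.00212). Cox7a2 (ENSMUSG00000032330.7, chr9:79755361-79759878) lay at 104, 116, 136, 145 and 158 CPM in P/Rbf and 30.2, 42.1, 58.6, 90.4 and 97.1 CPM in B1/P tumors, again with no overlap (log2 fold change 1.05 ± 0.27 SE, adjusted p = 0.0129). Uqcrc1, a core protein of complex III, lay at 183, 187, 196, 215 and 227 CPM in P/Rbf and 92.0, 95.5, 96.2, 107 and 159 CPM in B1/P tumors (log2 fold change 0.87 ± 0.17 SE, adjusted p = 0.00322). Atp5c1, the central stalk of the synthase, lay at 206, 213, 222, 242 and 244 CPM in P/Rbf and 140.4, 148, 155, 159 and 166 CPM in B1/P tumors (log2 fold change 0.55 ± 0.15 SE, adjusted p = 0.0162). These 4 calls held whichever sample was left out. Ndufc1, an accessory subunit of complex I, also had groups apart at 23.9, 28.2, 29.6, 30.7 and 33.7 CPM in P/Rbf and 9.95, 12.3, 15.0, 18.6 and 22.5 CPM in B1/P tumors (log2 fold change 0.90 ± 0.28 SE, adjusted p = 0.0344), but was lost without B1/P tumor 225068, 225070 or 248662 or P/Rbf tumor 287845 or 287822.

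Sdhb and Cox7b were called with overlap. Sdhb lay at 70.0, 90.1, 92.9, 97.1 and 105 CPM in P/Rbf and 42.2, 42.5, 42.7, 43.1 and 72.3 CPM in B1/P tumors, where 248662 alone entered the P/Rbf range (log2 fold change 0.91 ± 0.27 SE, adjusted p = 0.0266). Cox7b lay at 70.1, 101, 121, 126 and 131 CPM in P/Rbf and 52.6, 62.1, 65.3, 69.5 and 99.3 CPM in B1/P tumors (log2 fold change 0.66 ± 0.21 SE, adjusted p = 0.0347). Sdhb was lost without any of 4 tumors (B1/P 225068, 246361 or 255232 or P/Rbf 290860), and Cox7b without any of 7. With the term for 2 sets of mouse numbers, Cox5a was the 1 of the 9 higher members that kept its call.

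Ndufb7 rested on 2 tumors. The gene, an accessory subunit of complex I (ENSMUSG00000033938.5, chr8:83566671-83571626), lay at 56.0, 61.3, 65.6, 416 and 689 CPM in P/Rbf tumors, 40.9, 47.7, 61.9, 74.3 and 75.7 CPM in the B1/P group, 31.1, 39.4, 42.4, 43.3 and 47.4 CPM in the B1/P/Rbf group and 119, 127 and 141 CPM in glands. The tumors 287845 (689 CPM) and 287822 (416 CPM) were above all glands, and the other 3 P/Rbf tumors were within the B1/P range. Against B1/P the log2 fold change was 2.10 ± 0.58 (SE, adjusted p = 0.0184). That call was lost without 287845 (adjusted p = 0.0647), and without both tumors the log2 fold change was 0.02. Against glands Ndufb7 was not called in the 5 P/Rbf tumors (log2 fold change 1.00 ± 0.66 SE, adjusted p = 0.250), and without both tumors the log2 fold change was -1.08. Both tumors were left out because of their own Ndufb7 values, so that the values without them describe the other 3 and test nothing. The same 2 tumors had the highest levels of Cox8a (111 and 121 CPM, others of the group 44.0 to 55.0 CPM) and of Cox6b2 (9.33 and 12.3 CPM, others 0.173 to 0.647 CPM) in the P/Rbf group. They also had the highest levels of Ppargc1a, a coactivator of mitochondrial genes named here after its values were seen, at 231 and 138 CPM beside 1.24 to 5.44 CPM in the other 3. Cox4i1, by contrast, was lowest in these 2 tumors, at 189 and 177 CPM beside 327 to 361 CPM.

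The comparison of B1/P/Rbf with P/Rbf tumors, which differ in the Brca1 fl/fl alleles, gave 0 called members in either direction by edgeR, where 0.219% of all genes were higher and 0.0625% lower. Of the 83 tested, 76 had a log2 fold change below 0, with a median of -0.48 beside -0.01 for all genes. All 5 B1/P/Rbf tumors lie among the 8 lowest mouse numbers and all 5 P/Rbf tumors among the other 10. With the term for these sets, 5 of the 19186 genes were called. Against glands Ndufs1 was then -0.27 in B1/P/Rbf and -1.84 in P/Rbf tumors, and thus higher in B1/P/Rbf. Sdhb was still lower there, at -1.90 and -1.65. The members' median with the term is not given here. The epithelial sums of the 5 B1/P/Rbf tumors were all below those of the 5 P/Rbf tumors, as given above, with 0 of the 10 markers called and a median log2 fold change of -0.57, and their part in the shift was not tested. Without B1/P/Rbf tumor 208863 the members' median was -0.50, with 0 called. At an unadjusted p under 0.05 there were 45 members, all lower, and 3084 of the 19186 genes. DESeq2 called 14 members lower and 0 higher, and 2.26% of all genes lower and 3.09% higher. The medians were -0.47, -0.55, -0.53, -0.49 and -0.51 for complexes I to V, and -0.56 for complex IV with Cox8b left out. Ndufb7 came nearest to a call (log2 fold change -2.66 ± 0.59 SE, adjusted p = 0.0610). Its log2 fold change was -0.58 without P/Rbf tumors 287845 and 287822, left out because of their own Ndufb7 values. Next came Cox5a (log2 fold change -0.77 ± 0.19 SE, adjusted p = 0.0883). Its values of 46.2, 47.7, 52.2, 59.3 and 89.2 CPM in B1/P/Rbf were all below those of P/Rbf tumors given above. Atp5g3 lay at 58.0, 151, 153, 155 and 157 CPM in the B1/P/Rbf group and 195, 214, 231, 245 and 309 CPM in P/Rbf tumors, with no overlap and an adjusted p of 0.142. B1/P/Rbf tumor 210906 had the lowest mean of all members (5.42 on the log2 CPM scale) among the 15 tumors. Without B1/P/Rbf tumor 209490, which had the highest mean of its group (6.14), edgeR called 3 members lower and 0 higher (all genes 0.188% and 0.495%).

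Genes of the same pathway outside the rule were counted from lists. All 13 protein genes of mitochondrial DNA were lower than in glands in each tumor group, with medians of -2.92 in B1/P/Rbf, -2.05 in B1/P and -2.30 in P/Rbf tumors. Their summed level was 83013 to 96203 CPM in glands and 8222 to 35083 CPM in tumors. In B1/P/Rbf against B1/P tumors 7 of the 13 were lower (all genes 9.29%) and 0 higher (median -0.89), led by mt-Nd2 (-1.25 ± 0.33 SE, adjusted p = 0.0162) and mt-Atp8 (-1.06 ± 0.25 SE, adjusted p = 0.00887). Their median was -0.16 in P/Rbf against B1/P and -0.68 in B1/P/Rbf against P/Rbf tumors.

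Assembly factors, which build the complexes without staying in them, were lower than in glands in 31, 26 and 25 of 47 cases in tumors of the B1/P/Rbf, the B1/P and the P/Rbf group and higher in 0, where 20.0%, 16.9% and 20.3% of all genes were lower and 17.0%, 16.8% and 17.4% higher. Of 16 genes of the citric acid cycle and its entry 16, 14 and 14 were lower and 0 higher. In P/Rbf against B1/P tumors 6 of these 16 were higher (all genes 8.43%) and 0 lower, led by Fh1 and Sucla2. Of 10 tested subunits and carriers with other names, such as Cyc1 and Slc25a4, 8, 8 and 7 were lower than in glands and 0, 0 and 1 higher, the last being Atpif1, an inhibitor of the ATP synthase, in P/Rbf tumors (log2 fold change 1.02 ± 0.31 SE, adjusted p = 0.0155). Of 15 regulators of mitochondrial genes 4, 2 and 4 were lower (26.7%, 13.3% and 26.7%) and 3, 4 and 4 higher (20.0%, 26.7% and 26.7%), shares near those of all genes. The 8 proliferation genes were all higher in every tumor group than in glands, and 1 and 4 of them were higher in B1/P/Rbf and P/Rbf than in B1/P tumors (all genes 7.36% and 8.43%).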

How the data were processed

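RNA-seq libraries of 15 mammary tumors and 3 normal glands were compared. The deposited values are expected counts per gene that the authors made with cutadapt and RSEM from stranded paired-end reads. Whether counting used strand is not given in the sources used here. The submitters' processing notes name both human and mouse builds, and all 55450 identifiers matched GENCODE M21 (GRCm38), whose coordinates are given. RSEM divides reads that match several genes, and 5.47% of values were not whole to within 0.01. Totals per library are given with the results.

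Expected counts were rounded. In R 4.3.3, edgeR 4.0.16 fitted all 18 samples by group (TMM, filterByExpr with a minimum count of 10, quasi-likelihood test), with Benjamini-Hochberg adjustment over all 19186 genes and adjusted p of 0.05 or less as a call. SE is the log2 fold change over the square root of F. Log2 CPM used a prior count of 2. The fit was tested on simulated data. Isoform ratios were compared by exact permutation tests (scipy). DESeq2 1.42.0, limma 3.58.1 (voom), other filters and scalings, a term for mouse numbers and leaving out samples were tried. The members and lists were chosen with earlier results of these data known. Named members are catalytic, isoform and c-ring genes and, per comparison, the 3 largest rises and falls with groups apart. Ndufb7, Uqcrc1, Atp5c1, Atp5s, Ndufb6, Ndufb9 and Ndufa11 were named after their values were seen. Sequences are from RefSeq (GRCm38.p6). The labels give 1 mouse per library, and the edgeR test sets group differences against variation between mice, estimated over all groups. For 1 member no single value is reported here, and it stays in the counts and medians.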

Additional observations from a re-analysis of the deposited data

Results flagged for a closer look

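In 9 of 120 groups of 5 tumors (named members and means of complexes, on the log2 CPM scale), 1 sample lay far from the other 4 by Dixon's ratio (over 0.71). Chance alone gives about 1 in 20 such groups, or 6 here, a rate that does not apply to Cox8b. With 4 B1/P tumors at 0 for that gene, any count in the remaining tumor fixes the ratio at 1. In B1/P/Rbf tumor 210906, Cox4i1 was 85.7 CPM where the others had 239 to 286 CPM, and Atp5g3 was 58.0 CPM where they had 151 to 157 CPM. In B1/P tumors, Sdhb was 72.3 CPM in 248662 (others 42.2 to 43.1 CPM), Atp5g1 was 139 CPM in 255232 (others 54.2 to 69.0 CPM) and Atp5g2 was 67.0 CPM in 225070 (others 128 to 151 CPM). Cox8b was 0.378 CPM in 248662 and 0 in the other 4. In P/Rbf tumors, Ndufs1 was 65.0 CPM in 287842 (others 82.0 to 88.2 CPM), Sdha was 178 CPM in 290845 (others 238 to 258 CPM) and Cox7a2l was 190.1 CPM in 290860 (others 121 to 135 CPM). The 2 P/Rbf tumors with 416 and 689 CPM of Ndufb7 are not among these, since the ratio looks for 1 sample apart.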

How the results depend on the processing

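The count of members that differed from glands stayed between 62 and 80 of 83 under the scalings, tools and designs tried, and between 66 and 79 with 1 sample left out (76 to 78 in B1/P/Rbf, 72 to 79 in B1/P and 66 to 76 in P/Rbf tumors). A filter at log2 CPM of 6 tested 53 members, of which 51 were called in B1/P tumors against glands. For B1/P/Rbf against B1/P, 10 members were called, but 4 without the filter on low counts, 3 with a term for 2 sets of mouse numbers, 5 in a fit of the 2 groups alone and 16 by DESeq2. Of all genes 3195 of 19186 were called, then 2783 of 32809, 2389, 2381 and 4413 in that order. Leaving out 1 sample gave 4 to 17 members (all genes 2327 to 3478, the latter without 225070): 6 without B1/P/Rbf tumor 208855, 4 without 208857, 4 without 208863, 6 without 210906, and 17, 6, 5 and 5 without B1/P tumors 225070, 246361, 255232 and 248662. For P/Rbf against B1/P, 11 members were called, but 7 at log2 CPM of 6, 7 with the mouse-number term, 6 in a fit of the 2 groups and 26 by DESeq2, and 9 to 14 with 1 sample left out. Of all genes 3684 of 19186 were called, then 866 of 4551, 2009, 1758 and 5027, and 2761 to 3937 with 1 sample left out. Without both P/Rbf tumors 287845 and 287822, chosen after seeing the data, 9 members were called, 8 of them shared (all genes 3546 of 19186). For B1/P/Rbf against P/Rbf DESeq2 called 14 members, and leaving out 1 sample gave 0 to 3 (3 without B1/P/Rbf 209490, and 1 without P/Rbf 287842, 290860 or 290845). Of all 19186 genes DESeq2 called 1026, and leaving out 1 sample gave 8 to 131. The count of isoform ratios called, 0 also with a prior count of 0.5 and with any sample left out (0 to 0), says nothing about their stability, since the comparisons with glands cannot go below an unadjusted p of 0.0357. Of 204 pairs of a named member and a comparison, 188 kept direction and call under DESeq2, 183 without TMM factors and 164 with the mouse-number term. The meaning of that term is not known, and only B1/P tumors span its sets. It left the fold changes of the 34 pairs of P/Rbf tumors with glands almost as they were, but could change their p-values. The sign changed in 1, 9 and 20 pairs in that order, and in 12 and 14 at the lowest and the highest value with 1 sample left out, 0 of them called in either fit. Calls were lost in 0, 10 and 18 pairs and gained in 15, 2 and 2. The cause of these shifts was not tested. No paired analysis was possible because the groups share no mouse numbers.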
